A study of Mus musculus with 71 samples.

Results

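The Groucho family of the mouse comprises the corepressor genes Tle1, Tle2, Tle3, Tle4 and Tle6 and the gene of a short relative, Aes, which is named Tle5 in current annotations. These 6 genes were chosen by symbol, as genes of the family that the octapeptide of Pax5 binds, and are 6 of 25579 genes in the tables of the Pax5 genotypes and 6 of 24420 genes in the tables of lymphoid progenitors. Poly(A) RNA was sequenced from 31 samples of pro-B cells and progenitors that differed in their Pax5 alleles and in 17 samples of multipotent progenitors and thymocytes. All 6 genes passed the filter on low values, above 1 TPM in at least 1 sample, in each of the models fitted.

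Groucho proteins do not bind DNA themselves. They are brought to chromatin by transcription factors such as Hes, Runx, Tcf/Lef and Pax proteins, where they repress transcription together with histone deacetylases. The full-length members Tle1 to Tle4 carry an N-terminal domain through which they form tetramers and a C-terminal WD40 domain that binds peptide motifs of transcription factors. Aes keeps the N-terminal part and lacks the WD40 repeats, and Tle6 is a divergent member best known from the oocyte. In early lymphocytes Pax5 recruits Groucho proteins through its octapeptide, and the Tcf and Lef factors of the T lineage are likewise partners of this family. The paper recalls earlier work in which Tle4 also contacted a C-terminal domain of Pax5, here called CRD1, through its own N-terminal domain.

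The study compared mice that differ in the domains of Pax5. The Pax5 mutant strains and the Vav-Cre line were on the C57BL/6 background, and all cells were sorted ex vivo. The paper does not name the background of the Rag2−/− mice or of the wild-type donors of the lymphoid samples. The control pro-B cells were Pax5+/+ (5 samples), and each mutant genotype had 2 samples. Homozygous mice lacked the octapeptide (Pax5∆OP/∆OP), the partial homeodomain (Pax5∆HD/∆HD) or both (Pax5∆OP,HD/∆OP,HD), or the C-terminal regulatory domains CRD1, CRD2 or both, either on both alleles (written Pax5∆CRD1/∆CRD1 for CRD1, Pax5∆CRD2/∆CRD2 for CRD2 and Pax5∆CRD1,2/∆CRD1,2 for both) or on 1 allele opposite a null allele (Pax5∆CRD1/− for CRD1, Pax5∆CRD2/− for CRD2 and Pax5∆CRD1,2/− for both). Pax5∆/∆ progenitors came from Vav-Cre Pax5 fl/fl mice, in which Cre deletes Pax5 in stem cells and all blood lineages. A separate experiment had 2 samples each of Vav-Cre Pax5 fl/+ pro-B cells (Pax5+/∆), Vav-Cre Pax5 Prd/fl progenitors (Pax5Prd/∆, whose remaining allele encodes little more than the paired domain) and Vav-Cre Pax5 fl/fl progenitors. The lymphoid samples, without a Pax5 mutation, were bone marrow LMPP (2 samples), thymic DN1, DN2a and DN2b cells (3 samples each), DN3a and DN3b cells (2 samples each) and DN3a cells of Rag2−/− mice (2 samples), which cannot rearrange antigen receptor genes. LMPP are lymphoid-primed multipotent progenitors, and DN1 to DN3b are successive stages of thymocytes that express neither CD4 nor CD8. Pax5∆CRD1,2/− cells and Pax5-deficient progenitors were sorted as Ly6D+ Kit-high B220+ cells, through another gate than the control pro-B cells, so that gate and genotype cannot be told apart in these comparisons. The gate of the homozygous cells without CRD1 and CRD2 is not given in the sources used here. In the separate experiment the Pax5Prd/∆ and Pax5∆/∆ progenitors are labelled as taken with an alternative gating, unlike the Pax5+/∆ pro-B cells. Labels do not say whether samples of a group came from separate mice, and the p-values therefore measure only the spread between these samples.

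Recovered depths were between 10018678 and 43784791 reads in the 31 samples of the Pax5 genotypes. Igll1, which encodes a component of the surrogate light chain of pro-B cells, was between 4067 and 6029 TPM in the Pax5+/+ samples and at 1325 and 1657 TPM in Pax5∆/∆ progenitors. Cd79a, which encodes a signalling chain of the B cell receptor, was between 2597 and 4361 TPM in the first and at 439 and 452 TPM in the second group. T-lineage markers summed to 97.0 to 130 TPM in the pro-B controls and to 16587 to 16717 TPM in DN3a cells. Granulocyte and macrophage markers varied within genotypes, between 474 and 5076 TPM in the controls and between 851 and 11193 TPM in Pax5∆CRD2/− cells. The TPM of Pax5 itself is no check of the genotypes, because single exons or domains are deleted. In bulk samples, fewer cells of a type and less RNA per cell cannot be told apart.

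Aes, Tle2 and Tle6 are neighbours. On chromosome 10 of GRCm38.p6, Aes lies from 81559444 to 81566371 and Tle2 from 81574739 to 81592581 on the plus strand, and Tle6 lies from 81590904 to 81601185 on the minus strand. The RefSeq models of Tle2 and Tle6 overlap tail to tail by 1678 bases but share 0 exonic bases, while the antisense transcript Gm32024 covers 561 of the 2540 exonic bases of Tle6. Whether reads were counted by strand is not given in the sources used here, so reads of Tle6 and Gm32024 may be mixed. Tle1 lies on chromosome 4 from 72109945 to 72200989 on the minus strand, Tle3 on chromosome 9 from 61372326 to 61418497 on the plus strand, and Tle4 on chromosome 19 from 14448072 to 14598183 on the minus strand.

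Promoters of RefSeq (GRCm38.p6), from 250 bases before to 50 bases after a start site, were found for 5 of the 6 genes, with Aes as the exception. Shown are those of Tle1, which had its lowest levels in cells without the octapeptide, of Tle3, the most abundant full-length member, and of the first of 2 listed starts of Tle6, which was lower in most mutants. Each is given 5′ to 3′ on the strand of its gene, with capitals for matches on either strand to the searched words, namely CACGTG or CAGCTG or CAGGTG for E-boxes, TGTGGT for Runx, CTTTGA for Tcf/Lef and GGGCGG for Sp factors. These words overlapped nowhere in the 3 windows.
Tle1, chr4:72200844-72201143, minus strand: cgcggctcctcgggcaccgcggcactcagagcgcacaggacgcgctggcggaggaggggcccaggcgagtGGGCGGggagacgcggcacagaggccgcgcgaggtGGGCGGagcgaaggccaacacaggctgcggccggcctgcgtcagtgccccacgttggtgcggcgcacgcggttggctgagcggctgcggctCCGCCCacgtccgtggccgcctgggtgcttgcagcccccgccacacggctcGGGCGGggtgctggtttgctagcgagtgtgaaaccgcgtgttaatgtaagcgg
Tle3, chr9:61372116-61372415, plus strand: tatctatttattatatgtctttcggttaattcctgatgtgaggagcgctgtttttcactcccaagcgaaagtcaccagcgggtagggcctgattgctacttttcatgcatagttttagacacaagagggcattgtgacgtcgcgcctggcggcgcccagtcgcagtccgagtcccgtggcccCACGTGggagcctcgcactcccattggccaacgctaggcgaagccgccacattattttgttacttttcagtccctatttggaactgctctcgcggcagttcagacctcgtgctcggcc
Tle6, chr10:81600851-81601150, minus strand: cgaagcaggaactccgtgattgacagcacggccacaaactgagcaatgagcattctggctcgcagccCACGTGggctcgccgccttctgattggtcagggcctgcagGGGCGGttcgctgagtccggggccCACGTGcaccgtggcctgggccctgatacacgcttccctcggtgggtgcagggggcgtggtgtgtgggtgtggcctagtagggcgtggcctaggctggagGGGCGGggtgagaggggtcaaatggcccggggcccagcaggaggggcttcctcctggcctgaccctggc
The window of Tle1 held 4 matches to GGGCGG, that of Tle3 held 1 match to CACGTG, and that of Tle6 held 2 matches to CACGTG and 2 to GGGCGG. Of 32851 mouse promoters of the same length, 35.7% held GGGCGG and 7.15% held CACGTG. No window of the 5 genes held CAGGTG (20.2% of all promoters), TGTGGT (16.8%) or CTTTGA (16.0%), and CAGCTG (16.3%) was found only at the second start of Tle6. These matches describe the letters of the windows and say nothing of binding.

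TPM, a measure of transcript abundance that corrects for gene length and sequencing depth, allows levels to be compared between genes. In all 48 samples Aes had the highest level of the 6 genes, followed by Tle3 and Tle4. These 3 genes made up 98% to 99.4% of the summed TPM of the family in the Pax5 genotypes and 96.3% to 99.8% in the lymphoid samples. In Pax5+/+ pro-B cells the levels of Aes in replicates 1 to 5 were 703, 867, 664, 639 and 760 TPM, those of Tle3 were 254, 331, 187, 178 and 284 TPM, and those of Tle4 were 72.4, 69.7, 54.4, 57.2 and 66.1 TPM. Tle6, Tle1 and Tle2 were far lower, with means of 10.5 ± 2.08, 2.98 ± 0.218 and 1.35 ± 0.949 TPM (SD, n = 5). Tle2 was the lowest gene in 30 of 31 samples of the Pax5 genotypes, and as few as 0 and at most 97 reads lay behind its values.

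Replicates 3 and 4 of Pax5+/+ were sequenced with reads of 100 nucleotides and the others with 50, before the authors trimmed all reads to 50. Read length thus stands here for the sequencing series of these samples, and other differences between the series cannot be told apart from it. Tle3 averaged 290 TPM in the 3 samples with short reads and 182 TPM in the 2 with long reads. Aes averaged 776 and 652 TPM, Tle4 69.4 and 55.8 TPM, and Tle2 1.82 and 0.643 TPM, and these 4 genes did not overlap between the 2 sets of control samples. Tle1 and Tle6 overlapped. The share of all genes that were apart in the same way is not given here, so this separation is not a trait of these genes. Mutants were therefore compared with control samples of their own read length, either directly (central domains) or through a term for read length (C-terminal domains), and the plot of levels by genotype marks the 2 read lengths.

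**Figure D1:**
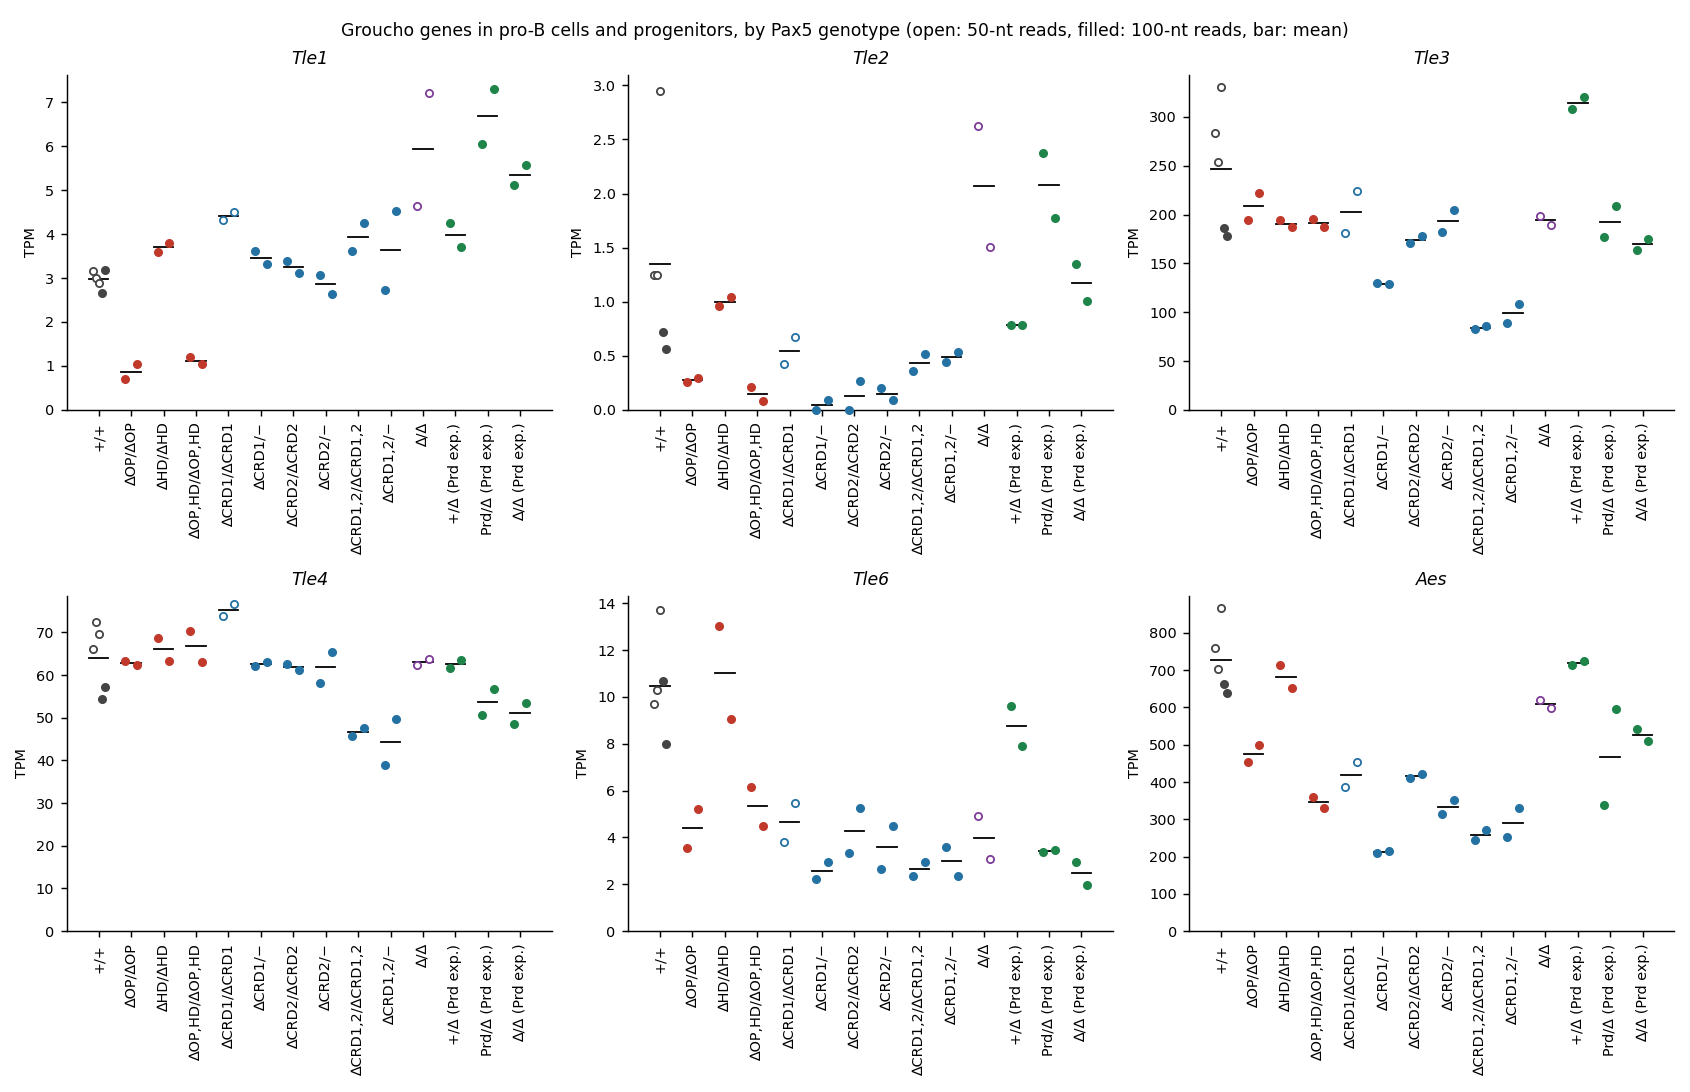
Level of each Groucho gene in TPM (y axis, from 0) in every sample of the 14 groups of Pax5 genotypes (x axis), with open points for reads of 50 and filled points for reads of 100 nucleotides, and bars for group means. Tle1 is lowest in the 2 genotypes without the octapeptide, while Aes and Tle6 are below every Pax5+/+ sample in all 6 genotypes with C-terminal deletions.

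Deletion of the central domains asks which genes need the Groucho-binding octapeptide, and here whether the Groucho genes themselves responded. Aes was lower in Pax5∆OP,HD/∆OP,HD than in control cells, and it was the only 1 of the 6 genes called in the 3 comparisons with Pax5+/+, which held 18 tests. A gene was called with an adjusted p under 0.05 over all genes of the model, and all fold changes are on the scale of log2(TPM + 0.1).

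Aes was at 664 and 639 TPM in the 2 matched Pax5+/+ samples, while Pax5∆OP,HD/∆OP,HD cells had 360 and 331 TPM, Pax5∆OP/∆OP cells had 452 and 499 TPM, and Pax5∆HD/∆HD cells had 714 and 651 TPM. Samples without the octapeptide were thus below all others, those lacking both domains were the lowest, and only Pax5∆HD/∆HD overlapped with the control. The log2 fold change of Aes was −0.92 in Pax5∆OP,HD/∆OP,HD (SE 0.0929, adjusted p = 0.00701), where 1.22% of 12996 genes tested were called. In Pax5∆OP/∆OP cells it was −0.46, which missed the threshold by limma (adjusted p = 0.0841, with 0.485% of genes called) and passed by DESeq2 on recovered reads (adjusted p = 0.0163). The difference was 0.07 in Pax5∆HD/∆HD cells (adjusted p = 0.853, with 0.639% called). The call in Pax5∆OP,HD/∆OP,HD was lost without Pax5+/+ replicate 3 (adjusted p = 0.0712), without Pax5∆HD/∆HD replicate 1 (0.0526) and without either Pax5∆OP,HD/∆OP,HD replicate (0.0974 without replicate 1 and 0.115 without replicate 2), and also without the trend (0.0584), while the log2 fold change stayed between −0.98 and −0.86 in these fits.

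Compared directly, Aes was lower in Pax5∆OP/∆OP than in Pax5∆HD/∆HD cells (log2 fold change −0.52, SE 0.0929, adjusted p = 0.0262, with 3.96% of genes called) and lower in Pax5∆OP,HD/∆OP,HD than in Pax5∆HD/∆HD cells (−0.98, adjusted p = 0.0181, with 0.0462% called). The first call was lost without any 1 of the 6 mutant samples (adjusted p from 0.0560 to 0.186) and the second without any 1 of all 8 samples (0.0608 to 0.424), and both were lost with TMM scaling (0.0685 and 0.0663) and without the trend (0.0989 and 0.182). Pax5∆OP,HD/∆OP,HD and Pax5∆OP/∆OP cells differed by −0.46 without passing the test by limma (adjusted p = 0.0711, with 1.1% called), while DESeq2 called this difference (adjusted p = 0.0050). The interaction of both deletions, added after the data had been seen, was −0.53 for Aes (95% confidence interval −0.83 to −0.22, adjusted p = 0.714), and 0.00769% of genes were called.

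Tle1, a full-length corepressor, had 0.691 and 1.05 TPM in Pax5∆OP/∆OP cells, 1.20 and 1.03 TPM in cells lacking both domains, 2.67 and 3.19 TPM in matched Pax5+/+ cells and 3.59 and 3.80 TPM in Pax5∆HD/∆HD cells. The 4 samples without the octapeptide had the lowest levels of Tle1 and did not overlap with the other 4. Pax5∆OP/∆OP cells differed from Pax5+/+ cells by −1.66 on the log2 scale (SE 0.368, adjusted p = 0.0975) and Pax5∆OP,HD/∆OP,HD cells by −1.31 (adjusted p = 0.168), and neither was called by limma, although both were called by edgeR (adjusted p = 0.00744 and 0.00939) and DESeq2 on recovered reads (1.01e-07 and 2.13e-05) and by limma in 1 model of all 25 samples (0.00722 and 0.0179). Set directly against Pax5∆HD/∆HD cells, Pax5∆OP/∆OP cells differed by −1.99 (adjusted p = 0.0300), and this call was lost without any 1 of the 6 mutant samples (0.0521 to 0.183) and without a filter on low values (0.0604).

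The level of Tle6 was 3.56 and 5.23 TPM without the octapeptide, 6.17 and 4.49 TPM without both domains, 13 and 9.04 TPM without the homeodomain and 10.7 and 8.0 TPM in the matched controls. The 4 samples lacking the octapeptide were below the other 4, but the log2 fold changes of −1.08 (adjusted p = 0.135) and −0.80 (adjusted p = 0.294) against Pax5+/+ did not pass the test by limma, while DESeq2 on recovered reads called the first (adjusted p = 0.0381). Tle2 had 0.256 and 0.295 TPM without the octapeptide and 0.208 and 0.0793 TPM without both domains, against 0.724 and 0.563 TPM in matched controls, and was not called either (adjusted p = 0.463 and 0.344). Tle3 and Tle4, which supply most full-length Groucho mRNA, differed from Pax5+/+ by 0.07 to 0.26 on the log2 scale in the 3 genotypes, with 0 of 6 tests called by limma (adjusted p from 0.297 to 0.848, with 2 at an unadjusted p under 0.05) and with confidence intervals between −0.15 and 0.49. In Pax5∆OP/∆OP samples granulocyte and macrophage markers summed to 3253 and 3719 TPM, in Pax5∆HD/∆HD samples to 350 and 1213 TPM, in samples lacking both domains to 448 and 4229 TPM and in the matched controls to 516 and 5076 TPM, and their part in these differences was not tested.

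**Figure D2:**
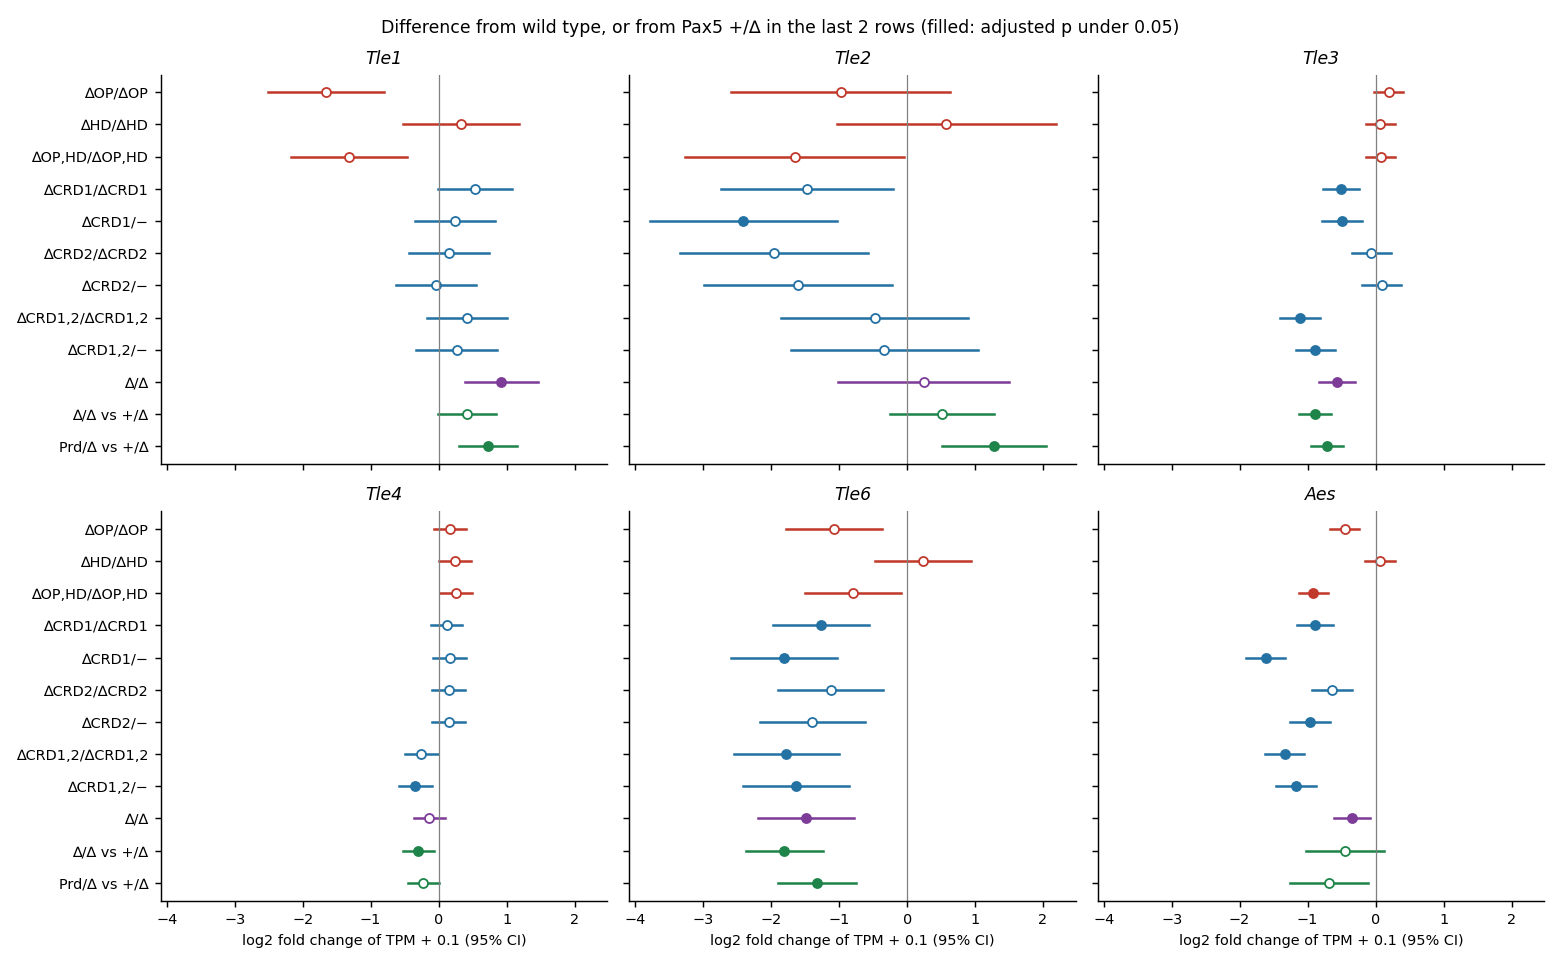
Log2 fold change of each gene (x axis, log2(TPM + 0.1), with 95% confidence interval) for each genotype (y axis) against Pax5+/+, or against Pax5+/∆ in the last 2 rows, with filled points for an adjusted p under 0.05. Aes and Tle6 lie left of 0 in all 6 genotypes with C-terminal deletions, and Tle1 lies left of 0 mainly without the octapeptide.

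Aes, Tle3 and Tle6 were lower in most genotypes with C-terminal deletions. Among 42 tests against Pax5+/+ (6 genes in 7 genotypes, Pax5∆/∆ included), 18 were called lower and 1 higher. Aes was called lower in 6 of the 7 genotypes, Tle3 and Tle6 in 5 each, and Tle2 and Tle4 in 1 each, while Tle1 was called higher in 1. These counts include Pax5∆/∆ progenitors, where Aes, Tle3 and Tle6 were called lower and Tle1 had its only call. The share of all 13854 tested genes that was called differed widely between the genotypes, with 7.75% in Pax5∆CRD1/∆CRD1, 10.9% in Pax5∆CRD1/−, 0.115% in Pax5∆CRD2/∆CRD2, 0.967% in Pax5∆CRD2/−, 24.1% in Pax5∆CRD1,2/∆CRD1,2, 23.5% in Pax5∆CRD1,2/− and 34.9% in Pax5∆/∆ cells. Called members numbered 3, 4, 0, 1, 3, 4 and 4 of 6 in the same order. In Pax5∆CRD2/∆CRD2 cells, with 0 by limma, 3 members had an unadjusted p under 0.05, and edgeR called 0 and DESeq2 1 of them. These comparisons share their control samples. Multipotent progenitor markers summed to 648 and 712 TPM in Pax5∆CRD1,2/−, 635 and 748 TPM in homozygous cells without both domains and 473 and 535 TPM in Pax5∆CRD1/− cells, against 233 and 237 TPM in the controls with reads of 100 nucleotides. Ly6a led this list in these mutants, with means of 318, 401 and 239 TPM, and Sox4 led it in Pax5+/+ cells (309 TPM). The paper names Ly6a among the genes whose repression depended on CRD1. Markers of plasmacytoid dendritic cells summed to 3081 and 3562, 2295 and 2430, and 2092 and 2140 TPM in the same order, against 492 and 577 TPM. Ly6d made up most of these sums, with means of 3059, 2151 and 1931 TPM, against 350 TPM over all Pax5+/+ samples. Its product Ly6D was part of the gate of Pax5∆CRD1,2/− cells. In Pax5∆CRD1/∆CRD1 cells the 2 lists summed to 561 and 569 TPM and to 1829 and 1986 TPM, against 345 to 469 TPM and 579 to 715 TPM in the controls with reads of 50 nucleotides. Ly6d had a mean of 1655 TPM in these mutant cells. Erythroid markers were at 22.4 and 24.5 TPM in Pax5∆CRD1,2/− cells and at 234 and 325 TPM in their controls. The part of these markers in the differences of the Groucho genes was not tested.

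Aes, the short member, fell to the lowest levels of all 48 samples in Pax5∆CRD1/− pro-B cells, at 209 and 215 TPM. It was at 244 and 272 TPM in Pax5∆CRD1,2/∆CRD1,2, 252 and 330 TPM in Pax5∆CRD1,2/−, 315 and 352 TPM in Pax5∆CRD2/−, 387 and 453 TPM in Pax5∆CRD1/∆CRD1, and 411 and 423 TPM in Pax5∆CRD2/∆CRD2 pro-B cells. All 12 samples were below the lowest of the 5 Pax5+/+ samples.

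The log2 fold change of Aes was −1.62 in Pax5∆CRD1/− (SE 0.135, adjusted p = 3.81e-06), −1.34 in Pax5∆CRD1,2/∆CRD1,2 (adjusted p = 9.09e-06), −1.17 in Pax5∆CRD1,2/− (adjusted p = 2.71e-05), −0.97 in Pax5∆CRD2/− (adjusted p = 0.00262) and −0.89 in Pax5∆CRD1/∆CRD1 cells (adjusted p = 0.000459). These 5 calls held in every alternative. In Pax5∆CRD2/∆CRD2 cells it was −0.64 (adjusted p = 0.131, 95% confidence interval −0.94 to −0.35), which limma did not call and DESeq2 did (adjusted p = 0.010). Homozygous and hemizygous cells of 1 deletion did not pass the direct test for Aes, with a difference of 0.73 for CRD1 (homozygous minus hemizygous, adjusted p = 0.343), 0.32 for CRD2 (0.599) and −0.16 for both domains (adjusted p rounding to 1). The 95% confidence intervals were 0.34 to 1.13, 0.03 to 0.61 and −0.45 to 0.13, and 0.0289%, 0.224% and 0.159% of all genes were called in these 3 contrasts. Over the 6 members limma called 0 in each of them, with 1, 1 and 0 at an unadjusted p under 0.05, and DESeq2 called 1 for CRD1. The contrast for CRD1 crosses the read lengths through the model's term.

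Tle6 had a similar course at a lower level. Its highest level among the 12 samples with C-terminal deletions was 5.47 TPM, below the lowest Pax5+/+ sample at 8.0 TPM. The samples were at 2.23 and 2.94 TPM in Pax5∆CRD1/−, 2.34 and 2.95 TPM in Pax5∆CRD1,2/∆CRD1,2, 3.61 and 2.34 TPM in Pax5∆CRD1,2/−, and 3.81 and 5.47 TPM in Pax5∆CRD1/∆CRD1 cells. On the log2 scale Tle6 changed by −1.81 in Pax5∆CRD1/− (adjusted p = 0.00454), −1.78 in Pax5∆CRD1,2/∆CRD1,2 (0.00261), −1.63 in Pax5∆CRD1,2/− (0.00449) and −1.26 in Pax5∆CRD1/∆CRD1 cells (0.0299). Both calls in cells without CRD1 and CRD2 held in every alternative. That in Pax5∆CRD1/− was lost without Pax5+/+ replicate 3 (adjusted p = 0.0554) and without Pax5∆CRD1/− replicate 1 (0.0649), and that in Pax5∆CRD1/∆CRD1 was lost without either of its own samples (0.325 without replicate 1 and 0.0770 without replicate 2) and without Pax5+/+ replicate 1 (0.0589) or 2 (0.102), and when fitted within its read length (0.0615). In Pax5∆CRD2/∆CRD2 and Pax5∆CRD2/− cells the differences were −1.12 (adjusted p = 0.429) and −1.39 (adjusted p = 0.104), and neither was called by limma, while DESeq2 called the second (adjusted p = 0.010).

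Tle3 was called lower in the 4 genotypes without CRD1 and in neither genotype without CRD2 alone. It was at 82.5 and 85.5 TPM in Pax5∆CRD1,2/∆CRD1,2, 89.2 and 109 TPM in Pax5∆CRD1,2/−, and 130 and 128 TPM in Pax5∆CRD1/− cells, which is below the matched Pax5+/+ samples at 187 and 178 TPM. Pax5∆CRD2/∆CRD2 cells were at 171 and 178 TPM and Pax5∆CRD2/− cells at 182 and 205 TPM, overlapping with these controls. The log2 fold change of Tle3 was −1.11 in Pax5∆CRD1,2/∆CRD1,2 (SE 0.136, adjusted p = 4.73e-05), −0.89 in Pax5∆CRD1,2/− (0.000305), −0.49 in Pax5∆CRD1/− (0.0318) and −0.51 in Pax5∆CRD1/∆CRD1 cells (0.0199). The differences in the CRD2 genotypes were −0.06 (95% confidence interval −0.35 to 0.23) and 0.09 (−0.20 to 0.38), and no contrast between a CRD1 and a CRD2 genotype was fitted.

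The 2 larger differences of Tle3 held in every alternative. The call in Pax5∆CRD1/− was lost without Pax5+/+ replicate 3 (adjusted p = 0.158) or 4 (0.0718) and without either of its own samples (0.146 in both cases, and 0.0544 without the trend). In Pax5∆CRD1/∆CRD1 cells, at 181 and 224 TPM against 254 to 331 TPM in controls of the same read length, it was lost without Pax5∆CRD1/∆CRD1 replicate 1 (0.311) and without Pax5+/+ replicate 2 (0.0657) and with TMM scaling (0.0592), edgeR (0.0674) and a fit within its read length (0.119), and without the term for read length the log2 fold change was −0.25 (adjusted p = 0.590). Set against Pax5∆CRD1/∆CRD1 cells, Tle3 in Pax5∆CRD1,2/∆CRD1,2 cells differed by −0.60 (adjusted p = 0.143, with 1.56% of genes called). This contrast crosses the read lengths through the model's term, and without the term limma gave −1.26 (adjusted p = 0.00365).

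Tle4 was the steadiest member across the Pax5 genotypes, with a 1.70-fold range of group means. Below the matched controls at 54.4 and 57.2 TPM were the cells lacking CRD1 and CRD2, at 45.8 and 47.5 TPM in homozygous and 39.0 and 49.7 TPM in hemizygous cells, while the other C-terminal genotypes were above the controls of their read length. The log2 fold change was −0.34 in Pax5∆CRD1,2/− (adjusted p = 0.0432) and −0.26 in Pax5∆CRD1,2/∆CRD1,2 cells (adjusted p = 0.119). The first call is a narrow one. It was lost in 10 of 19 fits that left out 1 sample, namely without Pax5+/+ replicate 3 or 4, either Pax5∆CRD1/∆CRD1, Pax5∆CRD1/− or Pax5∆CRD1,2/∆CRD1,2 sample, Pax5∆CRD2/∆CRD2 replicate 1 or Pax5∆CRD1,2/− replicate 1 (adjusted p from 0.0503 to 0.389), and with TMM scaling (0.110), edgeR (0.159), DESeq2 (0.110), a fit within the read length (0.0848) and no trend (0.0582). Compared directly, Pax5∆CRD1,2/− cells were below Pax5∆CRD1/− cells (62.1 and 63.1 TPM) by −0.51 (adjusted p = 0.0246, with 3.57% of genes called), which was lost without either Pax5∆CRD1/− sample (0.140 without replicate 1 and 0.176 without replicate 2) or Pax5∆CRD1,2/− replicate 1 (0.233) and with TMM scaling (0.0636), edgeR (0.0888), a fit within the read length (0.0715) and no term for it (0.0884).

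Tle2 was at 0 and 0.0941 TPM in Pax5∆CRD1/−, 0 and 0.263 TPM in Pax5∆CRD2/∆CRD2 and 0.203 and 0.0952 TPM in Pax5∆CRD2/− cells, and all 6 genotypes with C-terminal deletions were below the control samples of their read length. It was called in Pax5∆CRD1/− cells alone, with a fitted log2 fold change of −2.41 that depends on the 0.1 TPM added (adjusted p = 0.0271). This call was lost without Pax5∆CRD1/− replicate 1 (adjusted p = 0.233) and without Pax5+/+ replicate 3 (0.141) or 4 (0.0655), and with a pseudocount of 1 TPM (0.171). Tle1 was at 2.64 to 4.52 TPM in the 12 samples and was called by limma in none of these 6 genotypes, with differences between −0.03 and 0.54. In 3 of them, Pax5∆CRD1/∆CRD1, Pax5∆CRD1/− and homozygous cells without both domains, Tle1 was above the controls of the same read length, and DESeq2 called it in the first (0.61, adjusted p = 0.0429).

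In cells without the whole protein Aes, Tle3 and Tle6 were called lower and Tle1 higher by limma. In Pax5∆/∆ progenitors, which had 619 and 599 TPM, Aes differed from Pax5+/+ by −0.34 (SE 0.123, adjusted p = 0.0433). It was higher than in Pax5∆CRD1,2/− cells, which were sorted through the same gate but sequenced with the other read length, by 0.83 (adjusted p = 0.0228, with 3.65% of genes called). The difference from Pax5+/+ lost its call in 11 of 19 fits without 1 sample, which were those without Pax5+/+ replicate 2, 3 or 5 or without any Pax5∆/∆, Pax5∆CRD1/−, Pax5∆CRD2/∆CRD2 or Pax5∆CRD1,2/∆CRD1,2 sample (adjusted p from 0.0501 to 0.161), and without the term for read length (0.157), within the read length (0.0819), without the trend (0.0658) and without a filter on low values (0.0623). That from Pax5∆CRD1,2/− cells was lost without either Pax5∆/∆ sample, Pax5+/+ replicate 3 or 4 or Pax5∆CRD1,2/− replicate 1 (0.0570 to 0.0877), and with TMM scaling (0.0695) and edgeR (0.0752).

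In Pax5∆/∆ progenitors Tle3 had 199 and 189 TPM, with a log2 fold change of −0.57 (adjusted p = 0.00247). Tle6 had 4.91 and 3.06 TPM, with a log2 fold change of −1.49 (adjusted p = 0.00267). Without the term for read length the difference of Tle3 was −0.31 (adjusted p = 0.254). Tle1 rose, with 4.65 and 7.21 TPM, above every Pax5+/+ sample, and a log2 fold change of 0.92 (SE 0.251, adjusted p = 0.0108), which without Pax5∆/∆ replicate 2 was 0.61 (0.138). Markers of multipotent progenitors summed to 1023 and 1040 TPM in Pax5∆/∆ samples and to 233 to 469 TPM in Pax5+/+ samples, and their part in these differences was not tested. Flt3, which the paper lists as repressed by Pax5, led this list in Pax5∆/∆ samples with a mean of 464 TPM.

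The experiment with the Pax5Prd allele used other Pax5-deficient samples, and both groups of progenitors were gated otherwise than the Pax5+/∆ cells, so that gate and genotype cannot be told apart in comparisons with that control. Multipotent progenitor markers summed to 833 and 922 TPM in Pax5Prd/∆ and 838 and 878 TPM in Pax5∆/∆ progenitors, against 426 and 432 TPM in Pax5+/∆ cells, and their part was not tested. Flt3 led this list in both groups of progenitors, with means of 386 and 340 TPM, and Sox4 led it in Pax5+/∆ cells (383 TPM). Of 18 tests over 3 pairs of genotypes, 7 were called, all against Pax5+/∆ cells, with 2 higher and 5 lower in progenitors. Among 12941 genes, 39.9% were called between Pax5∆/∆ and Pax5+/∆ cells, 40.7% between Pax5Prd/∆ and Pax5+/∆ cells and 1.97% between Pax5Prd/∆ and Pax5∆/∆ progenitors. In the last pair limma called 0 members, also at an unadjusted p under 0.05, and so did edgeR and DESeq2.

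Tle3 had 308 and 321 TPM in the Pax5+/∆ controls, and progenitors had 164 and 175 TPM when Pax5∆/∆ and 176 and 209 TPM when Pax5Prd/∆. It differed by −0.89 in Pax5∆/∆ (SE 0.0985, adjusted p = 0.000874) and −0.71 in Pax5Prd/∆ progenitors (adjusted p = 0.00204), without overlap of the groups. Both calls held in every alternative.

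Tle6 was at 9.60 and 7.91 TPM in Pax5+/∆, 2.96 and 1.98 TPM in Pax5∆/∆ and 3.37 and 3.45 TPM in Pax5Prd/∆ cells. Differences were −1.80 in Pax5∆/∆ (adjusted p = 0.00170) and −1.33 in Pax5Prd/∆ progenitors (adjusted p = 0.00566), and the second call was lost without Pax5+/∆ replicate 1 (adjusted p = 0.0624).

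Tle1 rose in Pax5Prd/∆ progenitors by 0.73 (6.06 and 7.30 against 4.24 and 3.71 TPM in Pax5+/∆, adjusted p = 0.0183), and Tle2 rose by 1.28 (2.37 and 1.78 against 0.789 and 0.786 TPM, adjusted p = 0.0199). The call of Tle1 was lost without either Pax5+/∆ sample (0.0769 without replicate 1 and 0.141 without replicate 2) and without Pax5Prd/∆ replicate 2 (0.0541). The call of Tle2 was lost without either Pax5+/∆ sample (0.0886 without replicate 1 and 0.0875 without replicate 2) and without Pax5Prd/∆ replicate 1 (0.0649). In Pax5∆/∆ progenitors of this experiment Tle1, at 5.13 and 5.57 TPM, differed by 0.42 (adjusted p = 0.107, or 0.0250 by edgeR and 0.0244 by DESeq2). Tle4 was lower in Pax5∆/∆ cells (log2 fold change −0.30, adjusted p = 0.0478, 48.5 and 53.5 against 61.7 and 63.6 TPM), a call that ended without any 1 of the 4 samples compared (0.0706 to 0.228), with TMM scaling (0.0687), without the trend (0.0892) and without a filter on low values (0.0610).

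Aes diverged between the Pax5Prd/∆ samples, with 337 and 596 TPM. Pax5∆/∆ progenitors had 543 and 509 TPM and Pax5+/∆ cells 714 and 724 TPM, so that both progenitor groups were below the control. Neither difference was called, at −0.45 in Pax5∆/∆ (adjusted p = 0.178) and −0.68 in Pax5Prd/∆ cells (adjusted p = 0.0607, or 0.0410 by edgeR). Without Pax5Prd/∆ replicate 1 they were −0.45 (adjusted p = 0.00172) and −0.27 (0.0254), and without replicate 2 they were −0.45 (0.00328) and −1.09 (0.000999), all of which passed. Without replicate 2 Aes was also called between Pax5Prd/∆ and Pax5∆/∆ progenitors (−0.64, adjusted p = 0.0178). In these 2 samples, in the same order, granulocyte and macrophage markers summed to 261 and 253 TPM and T-lineage markers to 315 and 344 TPM. Pro-B markers summed to 10798 and 9974 TPM, multipotent progenitor markers to 833 and 922 TPM and erythroid markers to 40.8 and 43.5 TPM. Plasmacytoid dendritic markers summed to 2527 and 3048 TPM and natural killer cell markers to 20.4 and 13.7 TPM. The part of the markers in the divergence of Aes was not tested.

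The share of each gene in the summed TPM of the family differed between the genotypes. This sum was 919 and 886 TPM in the 2 Pax5+/+ samples with reads of 100 nucleotides, and it was lowest, at 396 ± 24.2 TPM (SD, n = 2), in Pax5∆CRD1,2/∆CRD1,2 cells. Aes made up 72.2% of the sum in these controls on average, 56.6% in Pax5∆OP,HD/∆OP,HD and 51.7% in Pax5∆CRD1/− cells, which had the same read length. In Pax5∆CRD1,2/∆CRD1,2 cells Aes made up 65.2%, and Tle3 was called lower both there and in Pax5∆CRD1/− cells. Tle4 made up 5.92% and 6.46% in the 2 controls and 15.3% in Pax5∆CRD1/− cells, whose Tle4 level (62.1 and 63.1 TPM) lay above both of them (54.4 and 57.2 TPM). The share of each gene depends on the levels of the other 5.

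**Figure D3:**
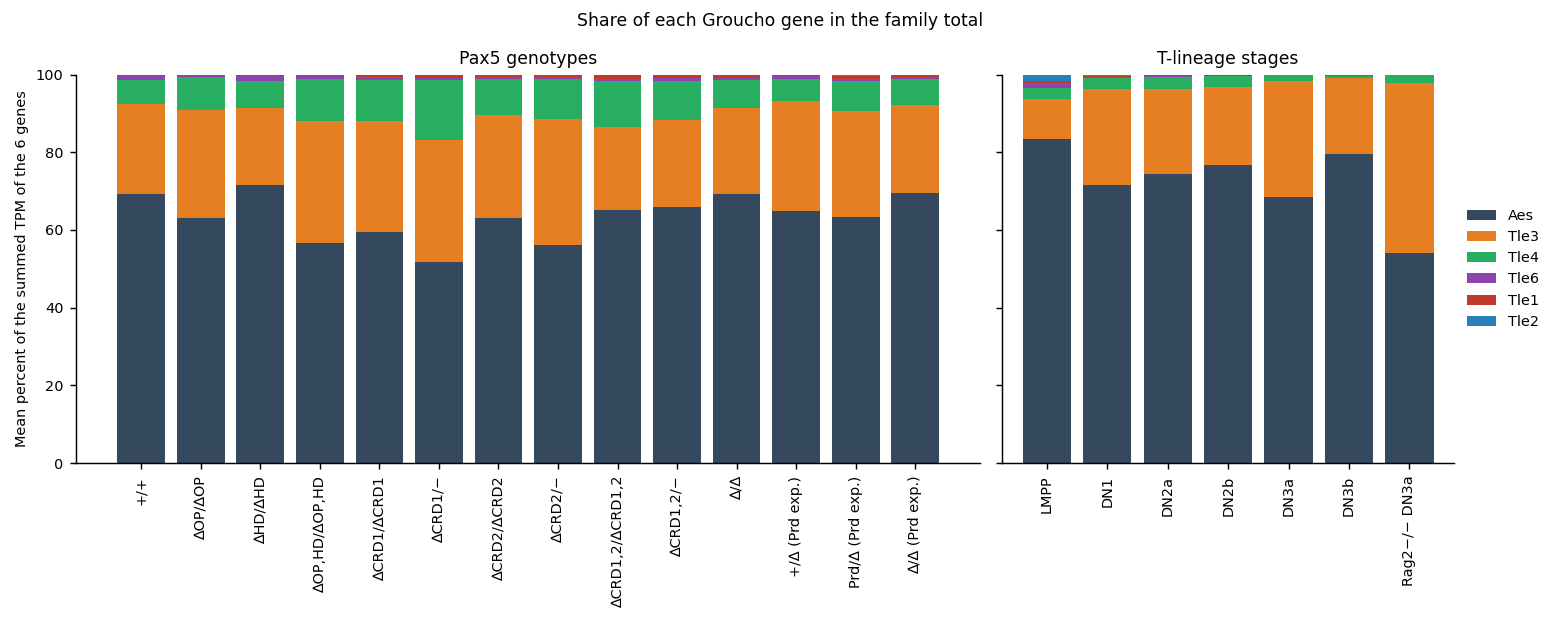
Mean percent (y axis, 0 to 100) of the summed TPM of the 6 genes that each gene contributed in each Pax5 genotype (left) and T-lineage stage (right). Aes falls to 51.7% in Pax5∆CRD1/− cells and to 54.2% in Rag2−/− DN3a cells, from 69.3% over all 5 Pax5+/+ samples (72.2% in the 2 with the same read length as Pax5∆CRD1/−) and 68.5% in wild-type DN3a cells.

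During early T cell development Tle2 and Tle6 declined, Tle3 rose to a peak in DN3a cells and Tle4 was lowest in DN3b cells. Across 5 steps between stages and the comparison of Rag2−/− with wild-type DN3a cells, 13 of 36 tests were called, 3 higher and 10 lower. Of 13482 genes tested, 18.6% were called from LMPP to DN1, 33.7% from DN1 to DN2a, 18.2% from DN2a to DN2b, 45.8% from DN2b to DN3a, 53.4% from DN3a to DN3b and 26.4% between Rag2−/− and wild-type DN3a cells. The median gene moved by −0.18, 0.27, −0.41 and −0.18 at the steps to DN2a, DN3a, DN3b and Rag2−/− DN3a, and TMM scaling shifted all values there by 0.18, −0.22, 0.24 and 0.17. Values under this scaling are given where a call differs.

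**Figure D4:**
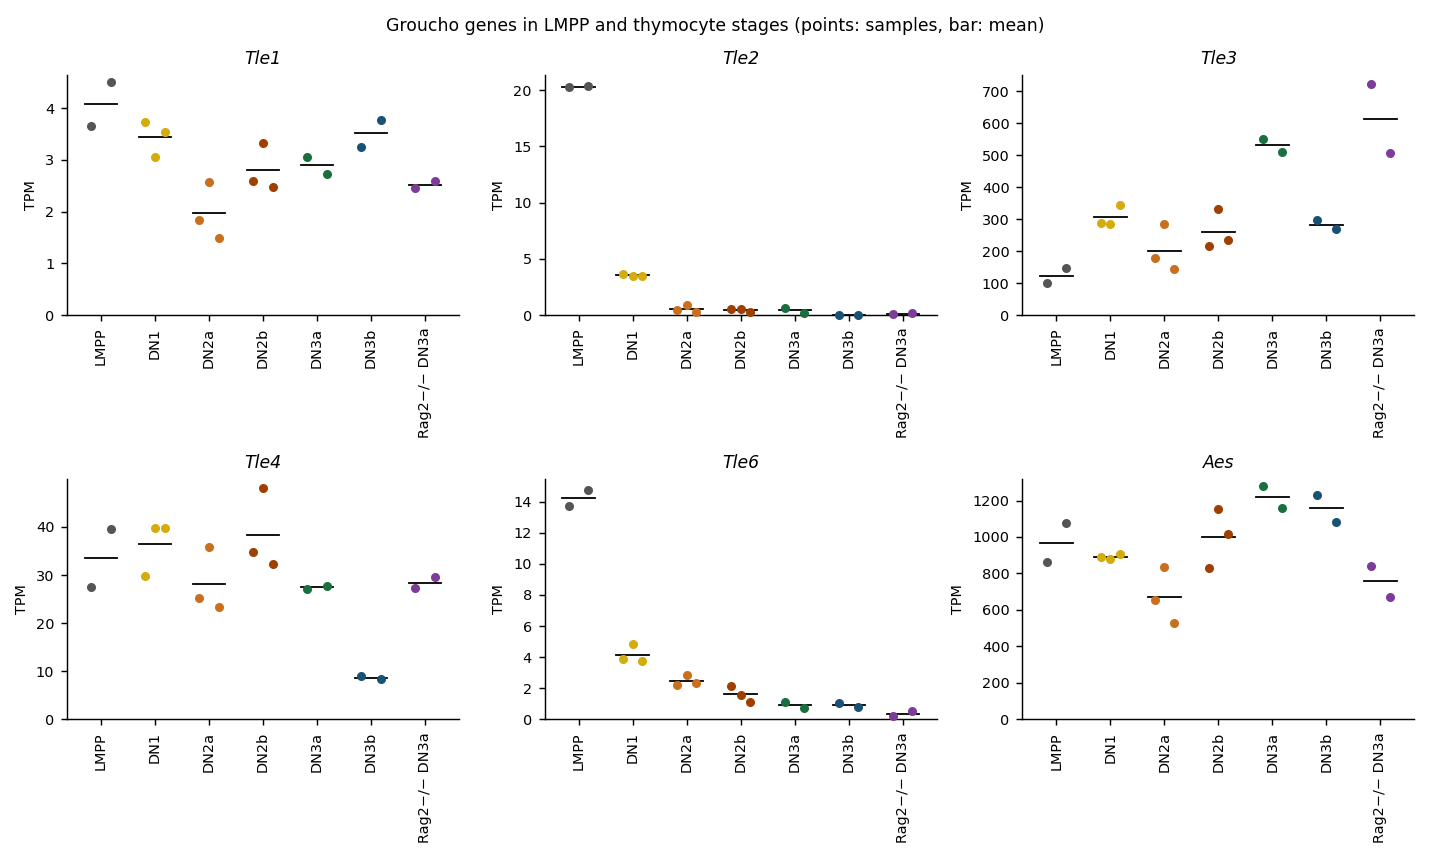
Level of each gene in TPM (y axis, from 0) in the 17 samples of LMPP, DN1 to DN3b and Rag2−/− DN3a cells (x axis), with points for samples and bars for means. Tle2 and Tle6 drop after LMPP, Tle3 is highest in the DN3a samples and Tle4 is lowest in the DN3b samples.

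Tle2, rare in pro-B cells, was at 20.2 and 20.4 TPM in LMPP and thereby above Tle6 and Tle1 in these cells. It was at 3.51 to 3.68 TPM in DN1, 0.309 to 0.869 TPM in DN2a, 0.266 to 0.551 TPM in DN2b, 0.621 and 0.202 TPM in DN3a and 0.0148 and 0.0396 TPM in DN3b cells. LMPP, DN1 and DN2a cells did not overlap. On the log2 scale Tle2 changed by −2.47 from LMPP to DN1 (SE 0.444, adjusted p = 0.00113), −2.63 from DN1 to DN2a (adjusted p = 0.000261) and −1.88 from DN3a to DN3b (adjusted p = 0.00497). The first 2 calls held in every alternative, whereas the third was lost without DN3a replicate 1 (log2 fold change −1.26, adjusted p = 0.0764) and with a pseudocount of 1 TPM (0.0590). From LMPP to DN3a the log2 fold change was −5.45 (adjusted p = 4.11e-07), where 53.8% of genes were called.

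Tle6 took the same direction, from 13.7 and 14.7 TPM in LMPP over 3.73 to 4.84 TPM in DN1, 2.24 to 2.84 TPM in DN2a and 1.14 to 2.12 TPM in DN2b to 1.11 and 0.751 TPM in DN3a cells. The groups from LMPP to DN3a did not overlap with their neighbours. It changed by −1.76 from LMPP to DN1 (adjusted p = 0.000852) and −3.82 from LMPP to DN3a (adjusted p = 3.29e-07), and both calls held in every alternative. The steps between DN1 and DN3a were −0.73 (adjusted p = 0.0541), −0.61 (0.148) and −0.72 (0.0676), and with TMM scaling the last was −0.93 (0.020). Multipotent progenitor markers summed to 2346 to 2480 TPM in LMPP, 2195 to 2407 TPM in DN1 and 938 to 1360 TPM in DN2a cells, and granulocyte and macrophage markers to 2384 to 2525, 1909 to 2175 and 502 to 523 TPM. Their part in the differences of Tle2 and Tle6 was not tested.

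Tle3 was at 99.99 and 147 TPM in LMPP, 285 to 344 TPM in DN1, 143 to 283 TPM in DN2a, 215 to 332 TPM in DN2b, 551 and 510 TPM in DN3a and 297 and 268 TPM in DN3b cells. DN3a cells were above all earlier stages and above DN3b cells. Tle3 rose by 1.33 from LMPP to DN1 (adjusted p = 0.00254) and by 1.05 from DN2b to DN3a (adjusted p = 0.00578, or 0.82 and 0.00647 with TMM scaling), with −0.91 from DN3a to DN3b (adjusted p = 0.0171, or −0.65 and 0.0290 with TMM scaling). From LMPP to DN3a it rose by 2.13 (adjusted p = 2.90e-05).

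The last of these calls and that from DN2b to DN3a held in every alternative. The rise to DN1 was lost without LMPP replicate 1 (1.05, adjusted p = 0.0618), and the fall to DN3b without either DN3a sample (0.0875 without replicate 1 and 0.0574 without replicate 2) or DN3b replicate 2 (0.0888). From DN1 to DN2a Tle3 differed by −0.66 (adjusted p = 0.0467), which was −0.46 with TMM scaling (0.0720), missed the threshold without the trend (0.0652), without a filter on low values (0.0690) and with a pseudocount of 0.01 TPM (0.0501), and was lost in 12 of 17 fits without 1 sample, which were those without any DN1, DN3a, DN3b or Rag2−/− DN3a sample, either DN2a sample numbered 1 or the second DN2b sample numbered 2 (0.0503 to 0.211).

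Tle4 stayed between 23.3 and 48.0 TPM in the 13 samples from LMPP to DN3a, then was at 8.97 and 8.43 TPM in DN3b cells, below all other samples. It fell by 1.64 from DN3a to DN3b (SE 0.241, adjusted p = 6.75e-05, or −1.39 with TMM scaling), a call that held in every alternative. From DN2b to DN3a it differed by −0.46 (adjusted p = 0.101), or by −0.69 with TMM scaling (0.00434). DN3b cells have passed selection for a rearranged T cell receptor beta chain, which DN3a cells have not.

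Aes was at 861 and 1078 TPM in LMPP, 880 to 906 TPM in DN1, 529 to 834 TPM in DN2a, 830 to 1155 TPM in DN2b, 1281 and 1161 TPM in DN3a and 1231 and 1082 TPM in DN3b cells. From DN1 to DN2a Aes differed by −0.43 and missed the threshold (adjusted p = 0.0569), but passed without DN2a replicate 2 (−0.60, 0.00681). Aes was called at 1 step between wild-type stages, with a rise of 0.58 from DN2a to DN2b (adjusted p = 0.0227), although these groups overlapped by a single pair of values. This call was lost without either DN2a sample numbered 1 (0.0651 and 0.109), DN2b replicate 1 (0.0984) or the second DN2b sample numbered 2 (0.0537). Tle1 was between 1.5 and 4.5 TPM in all 17 samples and was called at 1 step, a fall of 0.80 from DN1 to DN2a (adjusted p = 0.00934) that held in every alternative. The direction of Aes from DN3a to DN3b turned with the scaling, from −0.08 to 0.18 with TMM, and neither passed the test. From DN3a to DN3b Tle1 differed by 0.27 (adjusted p = 0.396), or by 0.52 with TMM scaling (0.0429).

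DN3a cells of Rag2−/− mice differed from wild-type DN3a cells in Aes and Tle6. Aes was at 840 and 674 TPM against 1281 and 1161 TPM, without overlap, and the log2 fold change was −0.70 (SE 0.200, adjusted p = 0.0210, or −0.52 and 0.0364 with TMM scaling). Tle6 was at 0.238 and 0.522 TPM against 1.11 and 0.751 TPM (log2 fold change −1.15, adjusted p = 0.0224). The call of Aes was lost without either wild-type DN3a sample (0.125 without replicate 1 and 0.0685 without replicate 2) or Rag2−/− replicate 2 (0.159), and that of Tle6 without wild-type replicate 1 (0.163) or Rag2−/− replicate 1 (0.212) and with a pseudocount of 1 TPM (0.0784). Tle3, at 721 and 506 TPM, overlapped with wild-type DN3a cells (log2 fold change 0.19, 95% confidence interval −0.44 to 0.81), and its share of the family was 43.5% on average against 29.8%.

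Transcription factors known to bind Groucho proteins were counted in the same comparisons. Of 13 such factors 5 were called higher and 3 lower in Pax5∆/∆ progenitors, where 34.9% of all genes were called, with medians over the list and over all genes of 0.31 and 0.00. The largest changes were those of Lef1 (−5.60, adjusted p = 7.41e-10), Runx2 (4.52, adjusted p = 1.42e-06), Tcf7l2 (−2.11, adjusted p = 6.75e-06) and the Pax5 transcript itself (1.72, adjusted p = 1.07e-07). Pax5 counts among the factors called higher, but its gene is deleted by Cre in these cells. Its reads there do not stand for Pax5 protein. In Pax5∆CRD1,2/− cells 4 factors were called higher and 4 lower (23.5% of all genes called), led by Lef1 with −2.57 (adjusted p = 1.08e-05). In Pax5∆CRD1/− cells 2 were higher and 3 lower (10.9% of all genes called), led by Tcf7l1 with 2.27 (adjusted p = 0.000162). In Pax5∆CRD2/∆CRD2 and Pax5∆CRD2/− cells limma called 0 of 13, with 1 and 4 at an unadjusted p under 0.05, where 0.115% and 0.967% of all genes were called.

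After deletion of the central domains 1 factor was called against Pax5+/+, namely Tcf7l1 in Pax5∆OP,HD/∆OP,HD cells (1.28, adjusted p = 0.0238, with 1.22% of all genes called). The mRNA of Tcf7 was lower in Pax5∆OP/∆OP than in Pax5∆HD/∆HD cells (log2 fold change −0.78, adjusted p = 0.0109, with 3.96% called). From LMPP to DN1, 6 of 11 factors tested were called higher and 1 lower (18.6% of all genes called), with the largest changes in Tcf7 (7.41, adjusted p = 3.12e-10), Hes1 (5.14, adjusted p = 1.28e-05) and Lef1 (4.88, adjusted p = 3.48e-09). Tcf7 and Hes1 are known targets of Notch signalling in early T cells. From DN3a to DN3b 1 was called higher and 7 lower (53.4% of all genes called), led by Hhex (−3.74, adjusted p = 4.99e-07).

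Among 12 other corepressor genes, which encode histone deacetylases and subunits of the Sin3, NCoR, CtBP and CoREST complexes, 1 was called higher and 1 lower in Pax5∆/∆ progenitors, against 34.9% of all genes. The higher 1 was Ctbp2 (1.87, adjusted p = 0.000120), a corepressor that binds other peptide motifs than Groucho proteins do. Ctbp2 also rose in the Pax5∆/∆ progenitors of the Prd experiment (2.56, adjusted p = 7.88e-05), where 5 of the list were called lower (39.9% of all genes called), led by Rcor1 (−0.44, adjusted p = 0.0192). It was called higher as well in Pax5Prd/∆ progenitors (2.44, adjusted p = 8.59e-05, with 40.7% of genes called). Further calls of Ctbp2 were in Pax5∆CRD1/∆CRD1 (1.37, 0.00721, with 7.75%), Pax5∆CRD1,2/∆CRD1,2 (1.56, 0.00206, with 24.1%) and Pax5∆CRD1,2/− cells (1.08, 0.0197, with 23.5%). It was not called in Pax5∆CRD1/− cells or either CRD2 genotype. After deletion of the octapeptide, the homeodomain or both, limma called 0 of the 12 genes, with 3, 3 and 2 at an unadjusted p under 0.05, where 0.485%, 0.639% and 1.22% of all genes were called. From DN1 to DN2a 5 were called lower and 0 higher (33.7% of all genes called), and from LMPP to DN3a 5 were called higher and 1 lower (53.8% called), the last being Ctbp2 (−5.74, adjusted p = 2.01e-09).

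The genes whose pattern was most like that of each member were found by Pearson's r of log2(TPM + 0.1) over the 31 samples of the Pax5 genotypes, which share control samples, gates and batches of sequencing. Tle3 was closest to Samd4b (r = 0.97), Mark4 (0.96) and Mef2d (0.96), and Tle4 to Atf7ip (0.92), Spata13 (0.92) and Map4k4 (0.91). Aes was closest to Mief2 (0.90), Stat5b (0.87) and Cradd (0.87). The rarer members had weaker matches, Tle6 with Scn2b (0.86), Tle2 with Fmnl1 (0.84) and Tle1 with Pcgf6 (0.80). Within the family the highest coefficient was that of Aes and Tle3 (0.78), followed by Aes and Tle6 (0.75), while Tle1 and Tle3 had −0.10.

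Over the 17 lymphoid samples Tle3 was closest to Notch1 (0.97), the receptor that directs T cell commitment, and Tle4 to Arid5a (0.96). Tle2 was closest to Rgag4 (0.98), Hk3 (0.98) and Cebpd (0.98), and Tle6 to Trib3 (0.98). In these samples the highest coefficient within the family was that of Tle2 and Tle6 (0.92), which are neighbours on chromosome 10, whereas Aes from the same region had −0.02 with Tle2 and −0.08 with Tle6. These coefficients describe the samples and were not tested.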

How the data were processed

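Poly(A) RNA of sorted mouse cells was sequenced by the authors. Reads of the 31 samples of the Pax5 genotypes were cut to 50 nucleotides and mapped with STAR 2.4.2a (GRCm38/mm10) by the authors, who counted them per gene with Rsubread and deposited TPM values. Of these samples, 8 came without gene names and took them from the row order of the named tables, which was checked with the deposited raw counts. The 17 lymphoid samples were mapped with TopHat 1.4.1 (mm9), and the authors deposited 2 TPM-like signal values per gene, whose difference is not given in the sources used here. Their mean was used, an entry of exactly 1 was read as 0, and symbols were matched after removing a suffix for overlapping genes. Groups were taken from the labels. Among DN1, DN2a and DN2b samples 2 carry the same number and were counted as separate samples.

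TPM carry no depth. Gene lengths implied by the deposited raw counts gave whole reads for the Pax5 genotypes, to within 0.01 reads. Replicates of these genotypes differed by more than sampling noise, the lowest chi-square per degree of freedom being 5.10. The study tested counts with DESeq2. Here limma 3.58.1 in R 4.3.3 was used on log2(TPM + 0.1), as a two-sided moderated test whose prior spread followed mean expression. Genes entered a model if 1 of its samples exceeded 1 TPM, and Benjamini-Hochberg adjustment ran over all of them. The models held 8 samples (central domains), 19 samples with read length as a term (C-terminal domains and Pax5∆/∆), 6 samples (Prd) and 17 lymphoid samples. The fits were also run on simulated data, whose outcome is not given here. All genes of a simulated set shared the same spread, so these runs are no check of the rarest members. Alternatives were pseudocounts of 0.01 and 1, no filter, TMM factors, no trend, edgeR 4.0.16 and DESeq2 1.42.0 on recovered reads, a replicate block, other sets of samples and each sample left out. The check of replicate numbers across groups gave correlations of deviations between −0.25 and 0.18, so the numbers were not taken as pairs.

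The 6 genes, the lists of 13 transcription factors and 12 corepressors and the marker lists were chosen with earlier results of these data known. Named from a list were at most 4 called genes with the largest change in a comparison, and for each member the 3 genes with the highest r among genes above 5 TPM in at least 1 group. Figures were drawn with matplotlib 3.10.9. ChIP-seq and ATAC-seq data were not used here.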

Additional observations from a re-analysis of the deposited data

Results flagged for a closer look

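Tle2 in Pax5+/+ replicate 2 was at 2.95 TPM, while the other 4 Pax5+/+ samples lay between 0.563 and 1.25 TPM. Its gap to the nearest sample was 0.713 of the range of the group, just above Dixon's critical value of 0.71 for 5 samples. The 6 genes were each examined in this group, and chance flags about 1 in 20 groups. The comparisons with reads of 50 nucleotides (Pax5∆CRD1/∆CRD1 and Pax5∆/∆) use this sample. Tle2 was called in neither of them, with or without it, and in Pax5∆CRD1/∆CRD1 cells its log2 fold change was −1.47 with it.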

How the results depend on the processing

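Over all alternatives 0 of the 48 calls on the 6 genes changed direction, direct contrasts included. Of these calls 22 were kept in every alternative, 25 were lost in at least 1 fit without 1 sample, and 17 by another alternative. The count in the central domains, 1 of 18 tests, was 0 without the trend, 3 by edgeR, 5 by DESeq2 and 3 in 1 model of all 25 samples, and 0 to 1 without 1 sample. The causes were not tested. In the C-terminal comparisons the 19 calls of 42 were 14 to 19 without 1 sample, and 14 of 37 within each read length, an alternative chosen after seeing the data. In the Prd experiment the 7 calls were 3 to 10 without 1 sample, and in the T-lineage comparisons the 13 calls were 8 to 19. The mean share of Aes over the lymphoid samples was 72.9%, and 72.8% and 73.1% with the upper and the lower deposited value.

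The replicate block could not be fitted together with read length, and with the block and without that term, an alternative chosen after seeing the data, 29 of 42 tests were called in the C-terminal comparisons, where removal of the term alone gave 19. With the replicate block 8 calls were made in the Prd experiment, where Aes in Pax5Prd/∆ cells was added (adjusted p = 0.0427), and 12 in the T-lineage comparisons, where Tle3 from DN1 to DN2a was lost (0.0648). No block could be fitted for the central domains against Pax5+/+, whose numbers 3 and 4 the mutants do not share.

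Depth limits Tle2 most, with a median of 21 recovered reads, against 122 for Tle6, 552 for Tle1 and at least 1194 reads in every sample for Aes, Tle3 and Tle4. With 2 samples in most genotypes, the differences of Tle2 from Pax5+/+ carried an SE of 0.587 to 0.695 on the log2 scale.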
